A study of Mus musculus with 4 samples.

Results

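The desmosome genes described here are Dsp, the cadherin genes Dsg2 and Dsc2, the plaque genes Jup, Pkp2, Pkp3 and Pkp4, and the adherens junction genes Cdh1 and Ctnna1. They were taken by gene symbol from the array annotation and are 9 of the 19938 genes measured. Each has 1 probe set, and no filter on low values was applied. The set was drawn up around Dsp, which was chosen by its measured difference between the genotypes of this series, so the differences below describe that choice, no p-value is printed for these genes, and a count of calls among them is a description only.

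A desmosome is a spot-like junction that ties the intermediate filaments of neighbouring cells together. Desmosomal cadherins span the gap between the cells, plakoglobin and the plakophilins bind the cadherin tails inside the cell, and desmoplakin links this plaque to the filaments. Desmosomes are best known from epithelia and heart muscle, whereas circulating blood cells are not known to build them. Plakoglobin also serves in adherens junctions, and in human acute myeloid leukemia its gene is known to be raised by several fusion oncoproteins.

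The samples were whole bone marrow of leukemic C57BL/6 mice, profiled as total RNA on Affymetrix mouse gene arrays. Of the 4 arrays, 2 came from marrow labelled MLL-AF9/Hes1-/- (Hes1-null) and 2 from marrow labelled MLL-AF9/Hes1+/+ (wild type). Both genotypes carry MLL-AF9, the oncogenic fusion that drives this acute myeloid leukemia, and the comparison addresses what loss of the Notch-induced repressor Hes1 changes in this leukemia. The age and sex of the mice, the way Hes1 was deleted and any pooling are not given in the sources used here, and whether each sample is a separate animal is not stated. Levels are log2 of the deposited RMA intensities, and each difference subtracts the wild-type mean from the Hes1-null mean on that scale. It is given ± its standard error (SE) with n = 2 arrays on either side. This SE is limma's moderated one, which pulls each gene's variance toward a value fitted over all genes. It can therefore be larger or smaller than the scatter of the gene's own arrays. For Pkp2 the pooled standard deviation within genotypes was 0.020 beside an SE of 0.12, and for Lima1 0.79 beside 0.50.

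The arrays were alike in overall brightness, with a median intensity over all probe sets of 65.1 and 66.6 on the Hes1-null arrays and 67.3 and 65.0 on the wild-type arrays. Levels across genes correlated at r = 0.982 between the Hes1-null arrays and at r = 0.995 between the wild-type arrays, and Hes1-null replicate 1 correlated at r = 0.987 and r = 0.985 with the wild-type arrays, closer than with its own replicate. The median gap between arrays of a genotype was 0.25 for Hes1-null and 0.11 for wild type. Hes1 itself lay at 5.43 and 5.84 on the Hes1-null arrays, against 5.59 and 5.79 on the wild-type arrays, so its level does not check the labels. Xist, the RNA of the inactive X chromosome, lay at 11.73 and 7.25 on Hes1-null replicates 1 and 2, against 11.82 or above on the wild-type arrays, which sets Hes1-null replicate 2 apart. None of the 4 Y-linked genes measured exceeded 4.09 on any array, Hes1-null replicate 2 included. The reason for its lower Xist level was not tested. The leukocyte gene Ptprc, encoding CD45, lay between 10.38 and 10.50 on all 4 arrays, and the myeloid transcription factor gene Spi1 between 11.53 and 11.78.

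The sequence upstream of Dsp is shown first because Dsp had the largest difference of the 9 genes, and that of Pkp4 is set beside it as a member whose arrays overlapped between the genotypes. Both are the 250 bases before the RefSeq start, 5′ to 3′ on the strand of the gene, from assembly GRCm38.p6. The Dsp stretch is chr13:38151044-38151293 on the plus strand and the Pkp4 stretch is chr2:59160600-59160849 on the plus strand. Capitals mark GGGCGG (the GC box bound by Sp1) or CCGCCC, its reverse complement, and CACGCG, a class C site of the kind that Hes1 is known to bind.
Dsp: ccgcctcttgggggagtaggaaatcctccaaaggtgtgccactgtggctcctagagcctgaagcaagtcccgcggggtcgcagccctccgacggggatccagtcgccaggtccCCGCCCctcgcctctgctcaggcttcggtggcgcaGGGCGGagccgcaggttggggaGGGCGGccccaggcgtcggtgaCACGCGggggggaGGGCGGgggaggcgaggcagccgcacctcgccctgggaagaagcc
Pkp4: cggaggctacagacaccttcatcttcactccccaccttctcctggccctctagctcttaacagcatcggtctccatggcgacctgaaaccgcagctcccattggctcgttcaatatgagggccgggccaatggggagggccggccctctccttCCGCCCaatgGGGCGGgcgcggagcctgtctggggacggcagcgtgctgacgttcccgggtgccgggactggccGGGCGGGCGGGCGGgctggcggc
Promoter sequences were at hand for 3 of the 9 genes, Dsp, Jup and Pkp4.

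In the Dsp stretch, 4 GC boxes and 1 class C site were found, and the class C site begins 58 bases before the start. The Pkp4 stretch shown, 1 of 2 that RefSeq gives for this gene, held 5 GC boxes and no class C site. Among its GC boxes, only the run nearest the start has neighbours that overlap. The Jup stretch held 2 GC boxes and no class C site. Neither CACNAG, the N box that Hes1 is also known to bind, nor CAGGTG, an E box bound by Snail repressors, was found in the Dsp stretch on either strand. The other Pkp4 stretch, not shown, held 1 CAGGTG match, beginning 47 bases before its start, and 0 GC boxes. Over 32851 RefSeq promoter stretches of the same length, CACGCG or its reverse complement was present in 7.62%, GGGCGG in 32.7%, CACNAG in 36.7% and CAGGTG in 17.2%. The Dsp stretch is rich in G and C, at 72.4% against a median of 52.4%. Among the 2118 stretches at least as rich, 27.9% held CACGCG and 92.0% held GGGCGG. These matches describe the letters in the window and were not tested as binding sites.

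Dsp encodes desmoplakin, the protein that couples the desmosomal plaque to intermediate filaments. Its level was 5.25 and 5.68 on Hes1-null replicates 1 and 2, against 8.07 and 8.20 on wild-type replicates 1 and 2. Both Hes1-null arrays were low and both wild-type arrays high, with a gap of 2.39 between the nearest arrays of the genotypes and a spread of 0.43 within Hes1-null and 0.13 within wild type. On the linear scale the intensities were 38.0 and 51.2 in Hes1-null marrow and 269 and 295 in wild-type marrow. The difference was -2.67 ± 0.20, which is 6.38-fold lower in Hes1-null marrow, and its size ranked 22nd among the 19938 genes. All 4 values lay above 4.09, the top level reached by any of 4 Y-linked genes, which serves here as a mark of background. This mark is a low one. The epithelial markers read below had a median level of 5.53, close to Dsp on the Hes1-null arrays. Whether Dsp exceeded the background of its own probe set on those arrays was not tested. With each array left out in turn the difference ran from -2.89 to -2.46. Because the marrow was profiled in bulk, fewer cells that express Dsp and less Dsp RNA per cell cannot be told apart.

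**Figure D1:**
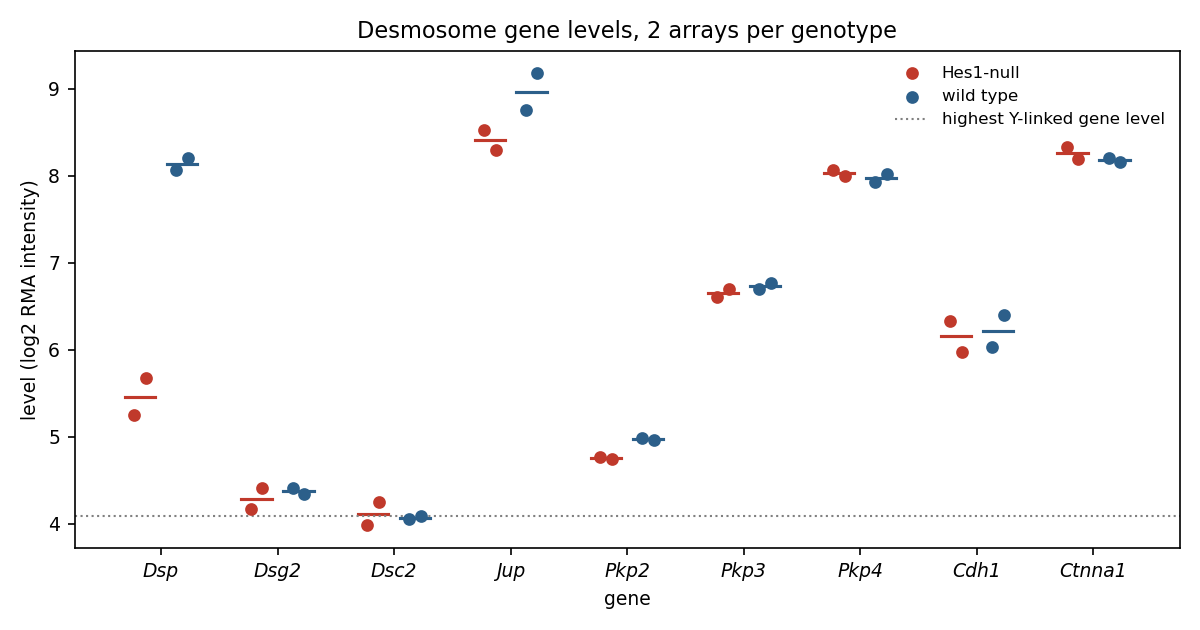
Level of each of the 9 desmosome genes (vertical axis, log2 RMA intensity) on the 2 Hes1-null arrays (red, left) and the 2 wild-type arrays (blue, right), with a bar at each mean and a dotted line at 4.09, the top level reached by any Y-linked gene. Dsp stands apart by genotype, at 5.25 and 5.68 in Hes1-null marrow and 8.07 and 8.20 in wild-type marrow, while the other genes have means less than 2-fold apart.

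The desmosomal cadherin genes overlapped between the genotypes. Dsg2, which encodes the desmoglein found in most tissues that have desmosomes, lay at 4.17 and 4.41 on the Hes1-null arrays, against 4.41 and 4.34 on the wild-type arrays, with a difference of -0.08 ± 0.14. Dsc2, encoding the desmocollin of similarly wide distribution, lay at 3.98 and 4.25 in Hes1-null marrow and at 4.05 and 4.09 in wild-type marrow, with a difference of 0.04 ± 0.14. Their probe sets were dim, with mean levels at the 14.4th and 11.6th percentile of all genes, so both lay near the mark of background. On 3 of 4 arrays Dsc2 did not exceed 4.09. A change of these genes below background would not be detectable here.

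Among the plaque proteins, plakoglobin had the largest difference after Dsp. Its gene Jup lay at 8.53 and 8.29 on the Hes1-null arrays, against 8.75 and 9.18 on the wild-type arrays. Both Hes1-null values were the lower ones, but the wild-type arrays were 0.43 apart, beside a difference of -0.55 ± 0.22 between the genotypes. Without wild-type replicate 2 the Jup difference was -0.34, and without wild-type replicate 1 it was -0.77.

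The plakophilins bind desmosomal cadherins and desmoplakin and help to gather them at the plaque. Pkp2, the plakophilin best known from heart muscle, lay at 4.77 and 4.74 on the Hes1-null arrays, against 4.99 and 4.96 on the wild-type arrays, a difference of -0.22 ± 0.12. Its replicates were close together, within 0.03 in each genotype, at a dim level. Pkp3, a plakophilin of epithelia, lay at 6.61 and 6.69 in Hes1-null marrow and at 6.70 and 6.77 in wild-type marrow, and the nearest arrays of the genotypes were 0.0070 apart. Its difference was -0.09 ± 0.14. Pkp4, a relative of p120-catenin found in desmosomes and adherens junctions, lay at 8.07 and 7.99 in Hes1-null marrow and at 7.92 and 8.02 in wild-type marrow, with overlapping arrays and a difference of 0.06 ± 0.16.

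The adherens junction genes overlapped between the genotypes as well. Cdh1 encodes E-cadherin, the classical cadherin of epithelia, and lay at 6.33 and 5.97 on the Hes1-null arrays, against 6.03 and 6.40 on the wild-type arrays. The arrays of each genotype lay 0.36 apart, and the difference was -0.06 ± 0.20. Ctnna1 encodes alpha-catenin, which connects cadherin complexes to actin, and lay at 8.34 and 8.19 in Hes1-null marrow and at 8.21 and 8.16 in wild-type marrow, a difference of 0.08 ± 0.16.

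Across the 9 genes the median difference was -0.08, against -0.02 over all genes, and 6 differences were negative and 3 positive. Dsp was the only member with an adjusted p under 0.05 in limma's test over all genes, where 0.145% of all genes were called, and that call is what brought Dsp into view. The count was 0 without wild-type replicate 2, where the Dsp difference was -2.61. In 4 of 9 members, Dsp, Jup, Pkp2 and Pkp3, both Hes1-null arrays lay below both wild-type arrays, beside 20.6% of all genes, and in 0 of 9 both lay above, beside 17.4% of all genes. Without Dsp the other 8 members had differences from -0.55 to 0.08, all under 2-fold, and the size of the Dsp difference was 4.83 times that of Jup, the next in size.

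**Figure D2:**
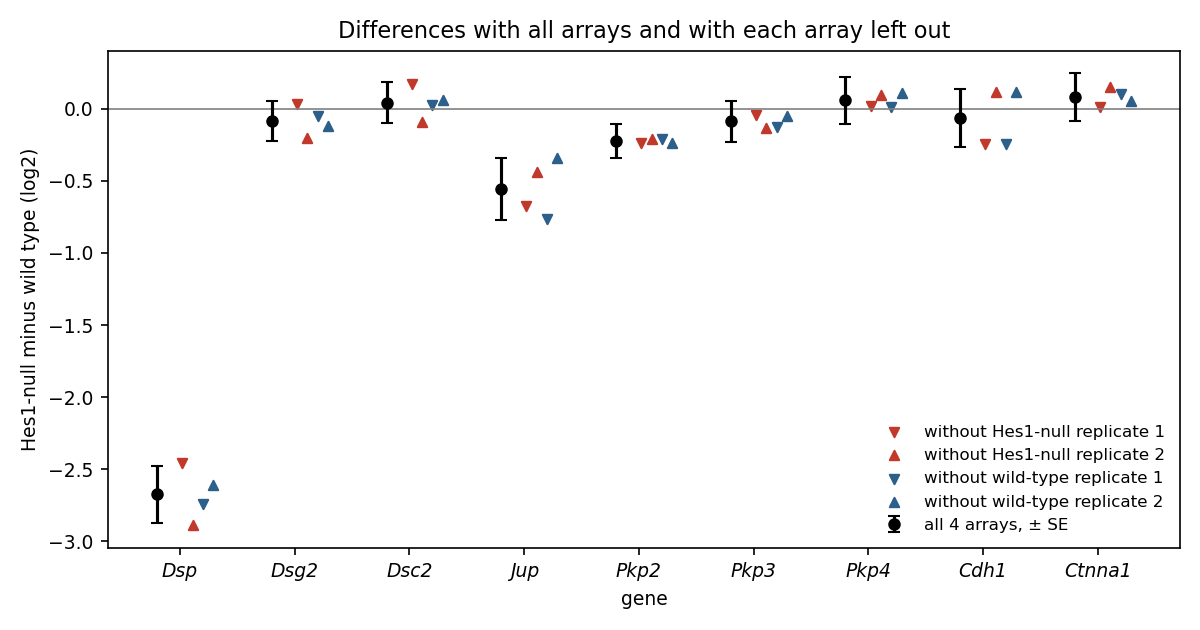
Difference of each gene (vertical axis, Hes1-null minus wild type, log2) with all 4 arrays (black, ± SE) and with each array left out in turn (triangles). Dsp stays between -2.89 and -2.46, Jup between -0.77 and -0.34, and the signs of Dsg2, Dsc2 and Cdh1 depend on which array is left out.

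Other genes of the junction and its surroundings were read from 7 lists with 87 measured genes. None of them had an adjusted p under 0.05 in limma, and 10 had an unadjusted p under 0.05, as had 8.29% of all genes. Both Hes1-null arrays lay below both wild-type arrays for 22 genes and above them for 17, beside 20.6% and 17.4% of all genes. At least 2-fold differences without overlap were seen for 3 lower genes, Krt80, Lima1 and Actn1, and for 1 higher gene, Des, where 1.22% and 0.777% of all genes met these limits. The median difference of the 87 genes was -0.03.

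Among the 8 other desmosome genes measured, all differences lay between 0.01 and 0.49, with a median of 0.16. These include desmogleins of skin and the desmocollin gene Dsc3, which were dim, while Dsg1a and Dsc1 were not measured. Dsg1c was at 3.41 and 3.67 on the Hes1-null arrays, against 2.95 and 3.15 on the wild-type arrays (0.49 ± 0.16), below 4.09 throughout. Dsc3 differed by 0.29 ± 0.16, Dsg1b by 0.28 ± 0.24 and Dsg4 by 0.14 ± 0.12. The list median was 0.35 without Hes1-null replicate 1, and leaving out replicate 2 of that genotype gave 0.09.

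Desmoplakin belongs to the plakins, large proteins that link filaments to junctions and to each other. The other 6 plakin genes had a median difference of -0.10, from -0.34 to 0.30. Plec, the gene of plectin, was at 7.97 and 8.67 in Hes1-null marrow and at 8.39 and 8.93 in wild-type marrow (-0.34 ± 0.31), with overlapping arrays. Dst, encoding dystonin, was lower on both Hes1-null arrays (5.02 and 5.08) than on the wild-type arrays (5.31 and 5.30), by -0.26 ± 0.12. Evpl, the gene of the skin plakin envoplakin, differed by 0.30 ± 0.14 and Eppk1, encoding epiplakin, by -0.10 ± 0.13. Leaving out Hes1-null replicate 1 gave a list median of -0.01, and leaving out replicate 2 gave -0.22.

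Intermediate filament and lamin genes, the filaments that desmoplakin holds and their nuclear relatives, had a median difference of -0.01 over 15 genes. The keratin gene Krt80 lay at 8.22 and 8.49 on the Hes1-null arrays, against 9.78 and 9.78 on the wild-type arrays, a difference of -1.42 ± 0.17 (adjusted p = 0.0862 by limma). Des, the desmin gene of muscle, lay at 8.25 and 7.36 in Hes1-null marrow and at 5.99 and 6.05 in wild-type marrow, a difference of 1.78 ± 0.31 (adjusted p = 0.173). Arrays did not overlap for either gene, and neither passed the threshold. Lmnb1, a nuclear lamin gene, differed by -0.39 ± 0.21 and the keratin gene Krt7 by -0.19 ± 0.15.

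Adherens junction genes had a median difference of 0.01 over 17 genes. Actn1, encoding the actin cross-linker alpha-actinin, was at 6.64 and 6.71 on the Hes1-null arrays, against 7.42 and 8.63 on the wild-type arrays (-1.35 ± 0.40, adjusted p = 0.447 by limma). Lima1, encoding the actin-binding protein EPLIN that joins alpha-catenin to actin, was at 6.99 and 5.48 in Hes1-null marrow and at 7.37 and 7.83 in wild-type marrow (-1.37 ± 0.50, adjusted p = 0.569). For both genes 1 array differed widely from its replicate. N-cadherin (Cdh2) differed by -0.32 ± 0.13 and Nectin1, an adhesion molecule gene, by -0.36 ± 0.17.

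Tight and gap junction genes had a median difference of -0.09 over 19 genes. Marveld2, encoding tricellulin, was at 5.35 or below on the Hes1-null arrays, against 5.99 and 6.04 on the wild-type arrays (-0.84 ± 0.16, adjusted p = 0.210 by limma). The claudin gene Cldn15 differed by -0.76 ± 0.19 without overlap, Cldn1 by -0.81 ± 0.43 with overlap, and the connexin gene Gja1 by -0.39 ± 0.16. The listed repressors and activators of junction genes had a median of -0.03 over 14 genes. Klf4 was at 8.18 and 8.79 in Hes1-null marrow and at 9.65 and 9.14 in wild-type marrow (-0.91 ± 0.29, adjusted p = 0.483), and the E-cadherin repressor genes Zeb2 and Zeb1 differed by -0.34 ± 0.19 and -0.30 ± 0.17. Snai3 differed by 0.26 ± 0.16. Enzymes that modify or shed desmosomal proteins had a median of -0.02 over 8 genes, with the sheddase genes Adam17 and Adam10 at -0.45 ± 0.21 and -0.38 ± 0.14, the kinase gene Prkca at 0.28 ± 0.17 and Egfr at -0.14 ± 0.13.

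**Figure D3:**
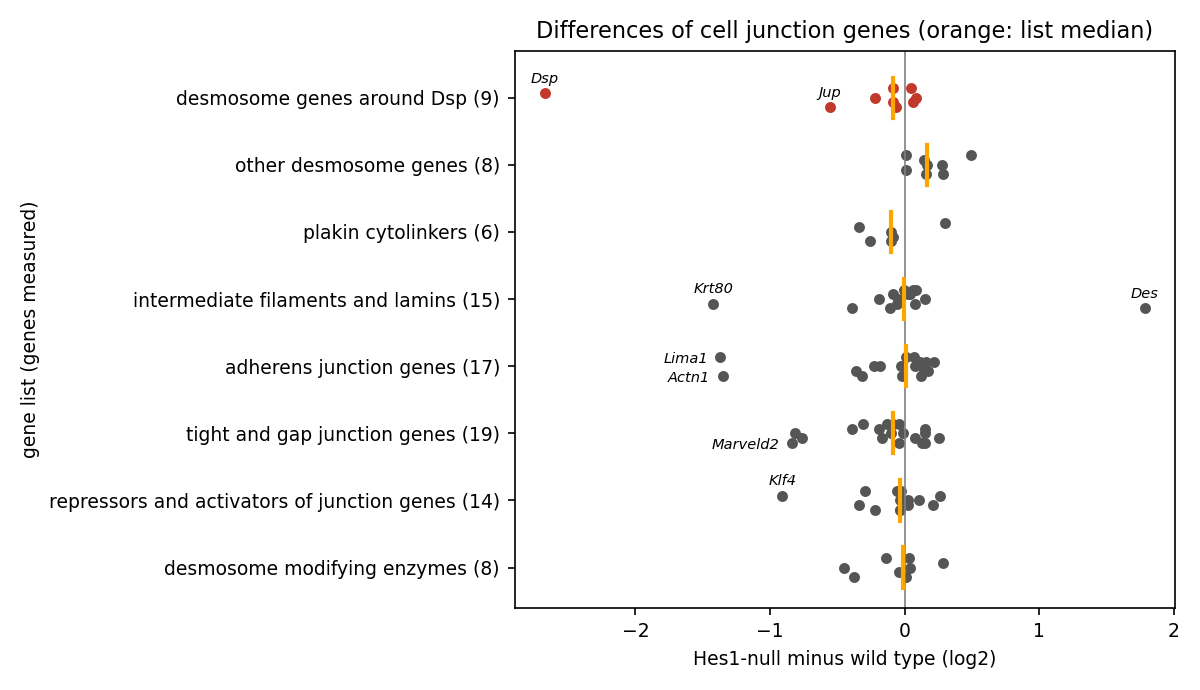
Difference of each measured gene (horizontal axis, Hes1-null minus wild type, log2) in the desmosome set (red) and in 7 lists of junction genes (grey), with list medians in orange. Dsp at -2.67 lies left of every listed junction gene, the next being Krt80 at -1.42, and the list medians run from -0.10 to 0.16.

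The genes whose levels over the 4 arrays lay nearest to those of Dsp, after each gene was centred on its own mean, were Vcam1, Pros1, Ltf, Fnbp1l and Tshr, at Euclidean distances of 0.22, 0.27, 0.31, 0.45 and 0.58 (log2). Vcam1, which encodes an adhesion molecule found on macrophages and stroma of the marrow, lay at 6.09 and 6.23 on the Hes1-null arrays, against 8.70 and 8.86 on the wild-type arrays. Pros1, which encodes protein S, a brake on coagulation, lay at 4.54 and 4.68 in Hes1-null marrow and at 7.06 and 7.15 in wild-type marrow. Ltf, which encodes the neutrophil granule protein lactoferrin, lay at 6.23 and 6.48 in Hes1-null marrow and at 8.87 and 9.38 in wild-type marrow. All of these genes, like Dsp, were low on both Hes1-null arrays and high on both wild-type arrays.

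Fnbp1l, encoding a membrane-bending regulator of actin, differed by -2.82 ± 0.21, and Tshr, the thyrotropin receptor gene, by -2.40 ± 0.30. The other members lay farther from Dsp by this measure. Jup was the nearest of them at a distance of 2.18, which placed it 690th of 19937 genes, and Ctnna1 the farthest at 2.79, placed 13835th. With 4 arrays in 2 groups, any gene of similar difference and spread lies close to Dsp.

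**Figure D4:**
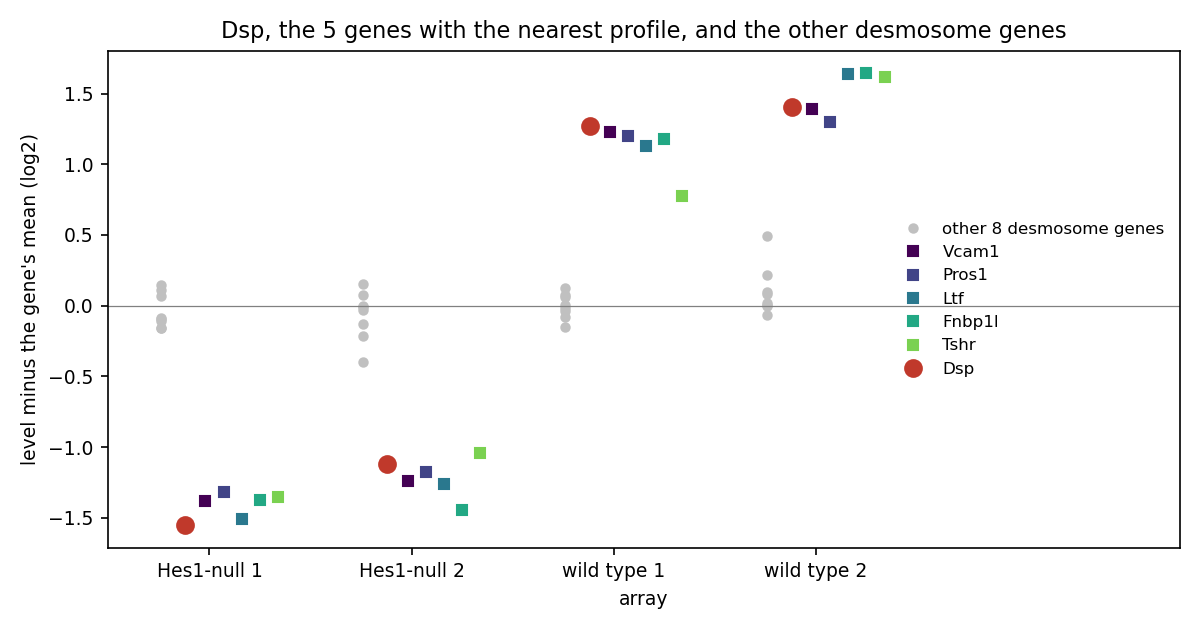
Level minus the gene's own mean (vertical axis, log2) on each array for Dsp (red), the 5 genes with the nearest profile (squares) and the other 8 desmosome genes (grey). The squares follow Dsp on every array, at distances of 0.22 to 0.58, while the other desmosome genes stay closer to 0.

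The genes beside Dsp on the chromosome had differences under 2-fold. In RefSeq order, the nearest protein-coding genes measured on either side of Dsp on chromosome 13 are Riok1, a kinase gene, and Snrnp48, a splicing factor gene. Riok1 lay at 8.74 and 8.64 on the Hes1-null arrays, against 8.36 and 8.40 on the wild-type arrays (0.31 ± 0.16), and Snrnp48 at 7.23 and 6.83 on the Hes1-null arrays, against 7.13 and 7.18 on the wild-type arrays (-0.12 ± 0.19). The next genes outward differed by 0.09 ± 0.17 (Cage1), 0.16 ± 0.12 (Ssr1), 0.02 ± 0.16 (Bmp6) and -0.43 ± 0.18 (Txndc5). The members lie on several chromosomes, with Dsg2, Dsc2 and Ctnna1 on chromosome 18, Jup on 11, Pkp2 on 16, Pkp3 on 7, Pkp4 on 2 and Cdh1 on 8.

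Markers of cells that could carry desmosomes were read beside Dsp. Lower and higher without overlap are counted for each list, beside 20.6% lower and 17.4% higher among all genes. Epithelial markers had overlapping summed levels: 3 of 13 were lower and 1 higher on both Hes1-null arrays, and their summed linear intensity was 700 to 763 in Hes1-null marrow and 708 to 716 in wild-type marrow. The defining epithelial gene Epcam lay at 4.94 and 5.01 on the Hes1-null arrays, against 5.09 and 5.13 on the wild-type arrays, and Krt8 at 6.65 and 6.95 in Hes1-null marrow, against 6.67 and 6.81 in wild-type marrow. Sfn differed by 0.42 ± 0.31, Trp63 by -0.16 ± 0.12 and Cldn4 by 0.13 ± 0.13. None of the 13 had an unadjusted p under 0.05 by limma. The median level of the list was 5.53, below the 6.36 of all genes, so its overlapping sums say little about epithelial cells. Stromal and endothelial markers were lower without overlap for 8 of 14 and higher for 1, with summed intensities of 1601 to 1791 in Hes1-null marrow and 1697 to 1786 in wild-type marrow. The higher gene was Pdgfrb, a receptor gene of pericytes, at 9.36 and 9.18 on the Hes1-null arrays, against 8.13 and 8.82 on the wild-type arrays. Without Pdgfrb, left out after its values were seen, the other 13 summed to 1134 and 1023 in Hes1-null marrow, against 1417 and 1336 in wild-type marrow. Because the gene left out was the only one higher without overlap, this gap follows from the choice and shows only where the higher intensity lay. In this list Sparc, a matrix protein gene, differed by -0.99 ± 0.15, the niche chemokine gene Cxcl12 by -0.87 ± 0.15, Kdr by -0.54 ± 0.13 and Vwf by -0.54 ± 0.14, none past the adjusted threshold.

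Many neutrophil, macrophage and megakaryocyte markers had lower levels on the Hes1-null arrays, as Dsp had, but only Ltf and Vcam1 among them passed the adjusted threshold. Neutrophil markers were lower without overlap for 10 of 12 and higher for 1, Mmp8 at 0.95 (summed intensity 15490 to 15730 in Hes1-null marrow, 31332 to 38873 in wild-type marrow; median difference -1.65). Among them Ltf fell (-2.77 ± 0.23, adjusted p = 0.0398 by limma), and Fcnb differed by -3.41 ± 0.45, Elane by -1.61 ± 0.18 and Prtn3 by -0.80 ± 0.10 without passing. Macrophage markers were lower for 7 of 11 and higher for 1, Cd68 at 0.23, with summed intensities of 4346 to 4667 in Hes1-null marrow and 5578 to 5971 in wild-type marrow and a median difference of -0.40. Vcam1, found on marrow stroma as well as on macrophages, fell (-2.62 ± 0.17, adjusted p = 0.0242 by limma). Csf1r, Adgre1 and Marco differed by -1.10 ± 0.27, -1.08 ± 0.26 and -0.38 ± 0.14. Megakaryocyte markers were lower for 5 of 6 and higher for 0, with sums of 607 and 606 in Hes1-null marrow, against 1106 and 1093 in wild-type marrow, and a median of -0.61. Ppbp, a platelet chemokine gene, differed by -1.91 ± 0.23, and Itgb3 and Itga2b by -0.91 ± 0.21 and -0.69 ± 0.19. No probe set had a deposited value of 0 or below on any array, so a value above 0 does not show that a marker was detected. The samples were bulk leukemic marrow, so whether these markers were read from such cells or from the leukemic cells was not tested. The part of either in the Dsp difference was not tested.

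**Figure D5:**
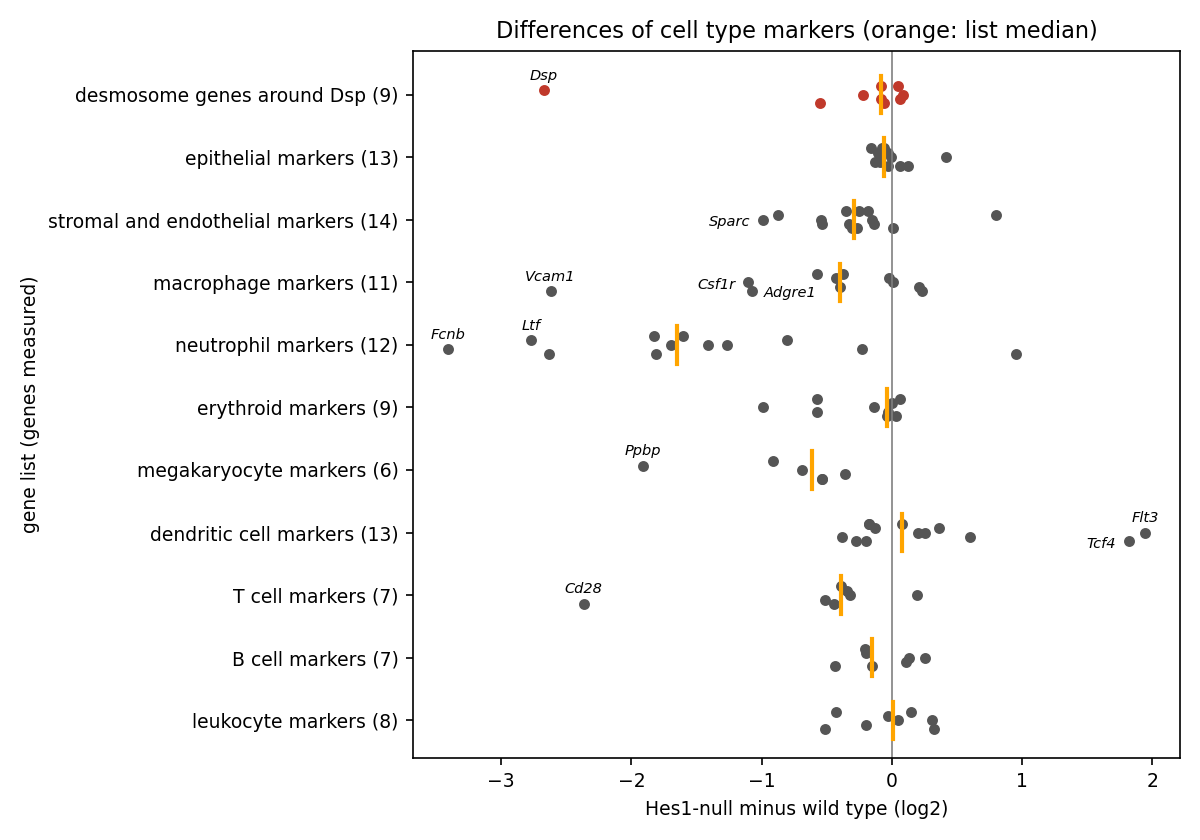
Difference of each measured gene (horizontal axis, Hes1-null minus wild type, log2) in the desmosome set (red) and in 10 lists of cell type markers (grey), with list medians in orange. Neutrophil markers have a median of -1.65 and megakaryocyte markers of -0.61, while epithelial markers have a median of -0.06 and lie between -0.16 and 0.42.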

How the data were processed

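Total RNA of leukemic whole bone marrow was hybridised to 1 array per sample, 2 per genotype. The authors deposited probe set intensities on a linear scale, which per the submitters' processing notes were made by RMA in Affymetrix Expression Console; versions are not given in the sources used here. Log2 was taken with nothing added. Of 35556 probe sets, 21789 have 1 gene symbol, and 21698 of these matched RefSeq genes of GRCm38.p6 by Entrez identifier. For 999 genes with several probe sets, the one with the highest mean was kept, which left 19938 genes. The annotation's build is not given, so its probe set coordinates are not printed. The positions of the promoter stretches are those of RefSeq in GRCm38.p6. limma 3.58.1 in R 4.3.3 (lmFit, eBayes with an intensity trend, two-sided) was fitted across all genes with a genotype term alone, followed by Benjamini-Hochberg adjustment at a threshold of 0.05. The p-values set each genotype difference against limma's moderated variance. That variance draws on the spread between these samples, which may be technical, and on a prior fitted over all genes. Having 4 arrays limits the precision throughout.

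The members and lists were chosen with earlier results of these data known. Named are the members, Hes1, Xist, Y-linked genes as a group, list members with an adjusted p under 0.05, up to 4 members of each described list with the smallest unadjusted p, and the 5 genes nearest to Dsp. The genes beside Dsp were named by position, and Ptprc, Spi1, Krt8, Pdgfrb, Mmp8 and Cd68 after their values were seen. The 4.09 mark of background was also chosen after seeing the data. The motifs were chosen with the Dsp result known. In 20 simulations on 19938 genes, the test called 14.9% of genes changed 2-fold and 87.3% of those changed 4-fold. Each gene's simulated spread came from limma's own fitted prior and was the same in both genotypes, with independent normal errors and upward changes only. The real arrays were less even, with a median gap of 0.25 within Hes1-null and 0.11 within wild type. These shares may therefore not hold for the real comparison. Alternatives covered scaling, filters, moderation, array weights, probe set choice, a replicate block and leaving out each array.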

Additional observations from a re-analysis of the deposited data

How the results depend on the processing

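The Dsp difference of -2.67 was the same number in 8 of 14 alternatives, which left its values as they were. It was -2.63 after quantile normalization again, -2.64 after centring, and -2.89 to -2.46 with 1 array left out. Members called were 0 with genes at or above the median level, which left 5 members to test, and 0 to 1 with 1 array left out, the loss coming without wild-type replicate 2. The total of 29 called genes was 17 with genes at or above the 25th percentile of level, 5 at or above the median and 45 with array weights, and ran from 6 (without wild-type replicate 2) to 999 (without Hes1-null replicate 1) with 1 array left out, where a lone array is assumed to vary like the other genotype. The cause was not tested. With the replicate number as a block it was 89. The design text speaks of pairs, but deviations of same-numbered arrays correlated at only 0.05 across genes, so the numbers were not taken as pairing, and the block changed no call among the members. The deposited values carry no detection calls, so dim members such as Dsc2, and Dsp on the Hes1-null arrays, have no certain level above background.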

Other observations

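Other marrow lineages gave mixed values beside the desmosome genes. Among 13 dendritic cell markers, 4 were higher and 4 lower on both Hes1-null arrays, beside 17.4% and 20.6% of all genes, and summed linear intensities were 6186 and 5674 in Hes1-null marrow, against 2455 and 1816 in wild-type marrow. The gap lay in Flt3 and Tcf4: without them, left out after their values were seen, the other 11 summed to 723 and 772 in Hes1-null marrow, against 693 and 713 in wild-type marrow. Flt3 (1.94 ± 0.30) and Tcf4 (1.82 ± 0.18) had the largest differences of that list, neither past the adjusted threshold. T cell markers were lower for 6 of 7 and higher for 1, with Cd28 at -2.37 ± 0.40. Erythroid markers were lower for 1 of 9, Alas2 (-0.99 ± 0.34), and leukocyte markers had a median difference of 0.01 over 8 genes. B cell markers had a median of -0.15 over 7 genes, with 1 lower and 1 higher without overlap.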
